A study of Mus musculus with 6 samples.

Results

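The cytosolic ribosomal protein genes of brown adipose tissue were described in 3 mice fed a high-fat diet (HFD) and 3 mice fed a low-fat diet (LFD). Members were the genes whose symbol is Rpl or Rps followed by a number, with or without a short paralog ending, plus Rplp0, Rplp1, Rplp2 and Rpsa. This naming rule found 86 of the 47729 genes in the tables, 53 of the large (60S) subunit and 33 of the small (40S) subunit. The rule used no measured value. All mice were male wild type C57BL/6J, and each library came from the interscapular brown fat of 1 mouse. The HFD mice received a diet labelled as 45% high-fat and the LFD mice a standard rodent diet, in both cases for 4 weeks from 6 weeks of age. The sequenced mice had been chosen within each diet as those with the greatest, the medium and the least fat mass, so they span the range of fat mass and are not a random draw. Total RNA was depleted of ribosomal RNA and read as single-end reads of 75 bases.

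Each cytosolic ribosome is built from ribosomal RNA and 1 copy of nearly every ribosomal protein, and the stalk proteins are the known exception. The genes are among the most highly transcribed in any cell, and their mRNAs begin with a C followed by a run of C and T, the terminal oligopyrimidine (TOP) tract, through which mTOR and LARP1 set their translation. Most ribosomal proteins come from a single active gene, which has left many processed pseudogenes in the genome by copying of its mRNA. A few have a paralog used in particular tissues, such as Rpl3l in heart and skeletal muscle and Rpl10l in the testis. Thermogenic brown fat depends mostly on mitochondria, which have ribosomes of their own with a separate set of proteins.

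The total gene counts lay between 17156991 and 21603487 per mouse. Adipocyte RNA was present in all mice, with Adipoq, the adipocyte hormone adiponectin, at 388 to 2015 TPM. Of 10 genes listed as brown adipocyte markers, 7 had positive fold changes (HFD over LFD) and 3 negative ones. The positive ones were Ucp1, Cidea, Prdm16, Dio2, Cox7a1, Elovl3 and Ppargc1a. The negative ones were Adipoq, Plin1 and Fabp4, with log2 fold changes of -1.19, -0.78 and -0.35. Cidea, one of the 7, had 468, 734 and 222 TPM in HFD mice 1 to 3 and 222, 19 and 39 TPM in LFD mice 1 to 3. Ucp1, the uncoupling protein that defines thermogenic brown fat, had 2728, 4021 and 796 TPM in HFD mice 1 to 3 and 443, 11.0 and 76.0 TPM in LFD mice 1 to 3. Skeletal muscle RNA was present in the LFD libraries, with a summed level of 20 muscle markers of 6246, 14972 and 2170 TPM against 101, 367 and 16.2 TPM in the HFD libraries. T and NK cell markers went the other way, and 8 of 11 tested were higher in HFD at an unadjusted p under 0.05, where 3.86% of all genes were higher. Their level was low, as the 12 listed summed to 15.36, 37.25 and 48.19 TPM in HFD and 1.99, 14.66 and 13.06 TPM in LFD. Some, such as Gzmb at 0.08, 0.75 and 0.44 TPM in LFD, could be tested mainly through the HFD mice. Their count is therefore not a like measure beside the share of all genes. The part of tissue makeup in the ribosomal protein levels was not tested. In bulk tissue, fewer cells of a type and less RNA per cell cannot be told apart.

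The start of the mRNA was read from RefSeq promoters on GRCm38.p6, which held an entry for 63 of the 86 members. The windows below show 15 bases before and 15 bases from the annotated start, with the longest run of C and T in capitals. The first 3 hold some of the longest runs among members, Rps6 encodes the classical phosphorylated protein of the small subunit, and Rpl3l is shown because its level differed most between the diets.
Rpl7a, chr2:26910792-26910821, plus strand: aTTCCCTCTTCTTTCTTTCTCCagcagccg
Rpl27a, chr7:109519180-109519209, plus strand: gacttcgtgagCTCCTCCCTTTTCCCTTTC
Rpl35, chr2:39005117-39005146, minus strand: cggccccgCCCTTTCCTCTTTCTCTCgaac
Rps6, chr4:86857353-86857382, minus strand: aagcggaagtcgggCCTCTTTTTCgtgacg
Rpl3l, chr17:24727811-24727840, plus strand: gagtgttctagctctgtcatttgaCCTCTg
The run was 21 bases long in Rpl7a, 19 in Rpl27a, 18 in Rpl35 and 10 in Rps6, and 5 bases long in Rpl3l. The letters CTTTC on the transcript strand lay within 25 bases of the start in 30.2% of the 63 member genes, 7.25% of 69 mitochondrial ribosomal protein genes and 7.87% of all 27025 genes of the table. These letters were chosen after the start sequences had been seen. The letters CCGGAAG are the core of a site for ETS factors such as GABPA. They were searched on both strands of the 300 bases around the start. They were found in 39.7% of members, 37.7% of mitochondrial ribosomal protein genes and 9.93% of all genes. Rpl3l held neither CTTTC nor CCGGAAG. The same was true of general members such as Rplp0, Rpl10, Rpl23, Rpl24 and Rps3. The longest run was 5 bases in Rplp0, 3 in Rpl10, Rpl23 and Rps3, and 2 in Rpl24. These traits were therefore not particular to Rpl3l.

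Ribosomal protein mRNA was abundant in every mouse. The 86 genes summed to 23109, 31831 and 39309 TPM in HFD mice 1 to 3 and to 27007, 35882 and 53147 TPM in LFD mice 1 to 3, where TPM is a length-corrected share of transcripts scaled to the same total in each mouse. The diets overlapped, with LFD mouse 3 highest and HFD mouse 1 lowest, while the HFD mouse was lower in all 3 same-numbered pairs. The labels give only replicate numbers, and the pairing of mice was inferred from these same data. The ratio of the HFD mean to the LFD mean was 0.812. With each mouse left out in turn it ran from 0.706 without LFD replicate 1 to 0.999 without LFD replicate 3. The next highest ratio was 0.920, without HFD replicate 1. LFD mouse 3 was the highest mouse for 78 of the 84 members that passed the filter on low counts on TPM, and HFD mouse 1 the lowest for 66. On log2 CPM, which removes differences of scale between libraries, LFD mouse 3 was the highest for 40, LFD mouse 2 the lowest for 48 and HFD mouse 1 the lowest for 1. The genes also kept their order, and the Spearman correlation over the 86 genes between any pair of mice was 0.945 to 0.993, as a description with genes as points. The large subunit genes together had 1.36 to 1.40 times the TPM of the small subunit genes in all 6 mice.

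The summed level depended on what else was in the library and on the measure. The share of counts from the mitochondrial genome was 22.7%, 16.5% and 8.50% in HFD mice 1 to 3 and 13.8%, 9.12% and 3.87% in LFD mice 1 to 3. The 7SL and 7SK RNAs (Rn7s1, Rn7s2 and Rn7sk), abundant non-coding RNAs of RNA polymerase III, took 14.1% to 26.9% of TPM. With TPM rescaled to leave out both kinds of RNA, the members summed to 42516, 49005 and 61190 TPM in HFD and to 42799, 48138 and 66613 TPM in LFD. Same-numbered mice then lay closer to each other, and the ratio of the means was 0.969. Shares of counts differ from TPM also in measure, as they are not corrected for length. Of all counts, with nothing left out, the members took 1.63% ± 0.38 (SD, n = 3) in HFD and 1.67% ± 0.46 in LFD, a ratio of 0.979. Of nuclear-encoded counts they took 1.92% ± 0.28 in HFD and 1.82% ± 0.40 in LFD. The direction turned between these shares of counts, and both differences stayed within the spread between mice. Leaving out these kinds of RNA was chosen after the data had been seen.

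**Figure D1:**
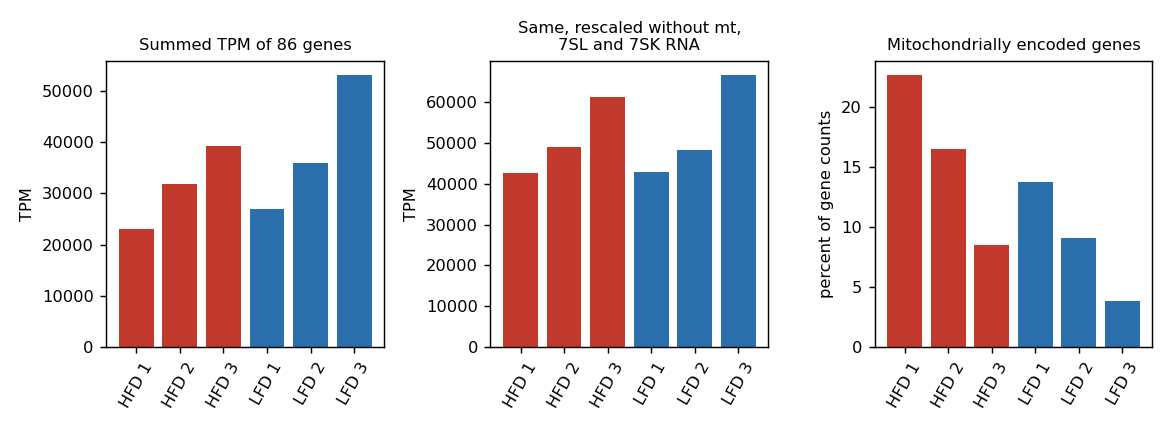
Bars show, for each of the 6 mice, the summed TPM of the 86 ribosomal protein genes (left), the same sum with TPM rescaled without mitochondrially encoded genes and the 7SL and 7SK RNAs (middle), and the percent of gene counts from mitochondrially encoded genes (right); red bars are HFD mice and blue bars LFD mice. The left sums run from 23109 to 53147 TPM, and in the middle panel same-numbered mice of the 2 diets lie close to each other.

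The diets were then compared gene by gene in edgeR's quasi-likelihood test over all 17668 genes that passed its filter, with fold changes given as HFD over LFD and calls required adjusted p below 0.01 with a log2 fold change beyond 1.5 in either direction. Of the 84 members tested, 0 were called, and 0.0% of all genes were called. At an unadjusted p under 0.05, 1 member was lower in HFD, Rpl3l, where 6.62% of all genes were lower, and 0 members were higher, where 3.86% of all genes were higher. DESeq2 called 1 member, again Rpl3l, and 1.38% of the 29856 genes it tested.

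The ribosomal protein genes lay close to no change. Their median log2 fold change was -0.07, beside -0.05 over all genes tested, and it ran from -0.17 to 0.0020 with each mouse left out in turn (without LFD replicate 2 and without LFD replicate 3). An absolute log2 fold change under 0.5 was seen in 80 of 84 members (95.2%) and in 65.3% of all genes. The members were also measured more tightly, with a median standard error of 0.26 against 0.41 over all genes and a median SD of log2 CPM over the 6 mice of 0.21 against 0.52. The median was -0.08 for the 52 tested genes of the large subunit and -0.02 for the 32 of the small subunit. On log2 CPM the diets overlapped for 80 members. All HFD mice lay below all LFD mice for Rpl3l and Rpl22l1, where 9.23% of all genes did so, and above them for Rpl23a and Rps23, where 6.72% did so. On TPM the diets did not overlap for Rpl3l, Rpl39l and Rps12l1, all lower in HFD, as were 11.6% of all genes, and for 0 members higher in HFD, beside 1.65% of all genes. Rps12l1 holds the same coding sequence as Rps12, and the summed values of that family, given below, overlapped between the diets.

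**Figure D2:**
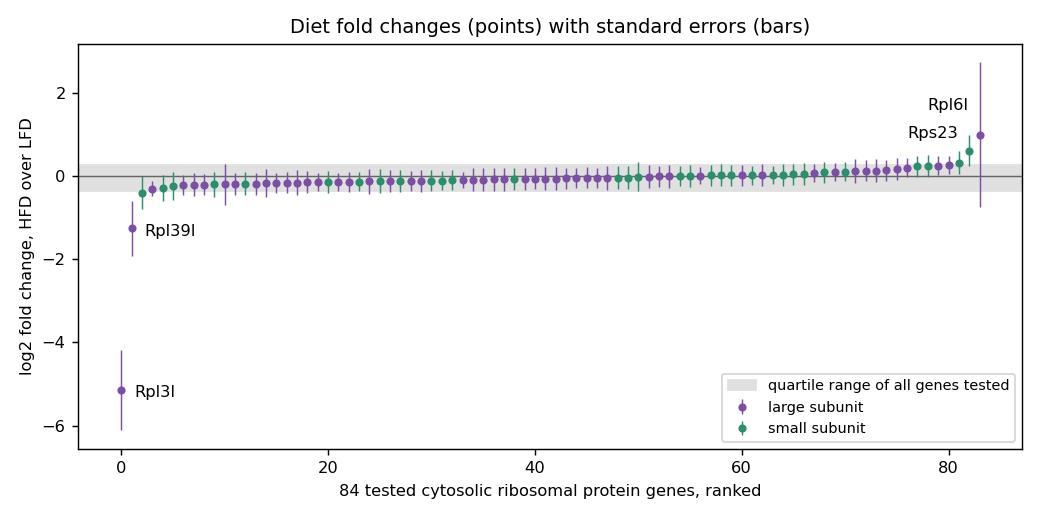
Points show the log2 fold change (HFD over LFD, n = 3 mice each) of the 84 tested ribosomal protein genes in rank order, bars their standard errors, purple the large and green the small subunit, and the grey band the range between the quartiles of all genes tested. All but 4 genes lie within 0.5 of zero, and Rpl3l stands apart at -5.15.

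Single roles were as level as the whole. The stalk of the large subunit, which recruits and activates elongation factors, is formed by Rplp0, Rplp1 and Rplp2. Rplp1 had 771, 890 and 1231 TPM in HFD and 866, 1144 and 1831 TPM in LFD, a log2 fold change of -0.14 ± 0.30 (SE). Rplp0 had a log2 fold change of -0.16 ± 0.30 and Rplp2 of 0.01 ± 0.25. Rps27a, which is made as a fusion with ubiquitin, had 280, 378 and 494 TPM in HFD and 233, 434 and 622 TPM in LFD, a log2 fold change of 0.08 ± 0.26. Rpsa, a small subunit protein also known as the laminin receptor precursor, had 176, 209 and 276 TPM in HFD and 245, 274 and 439 TPM in LFD, a log2 fold change of -0.29 ± 0.31. The diets overlapped for all of these genes, and none had an unadjusted p under 0.05.

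The highest levels belonged to Rpl41, the smallest ribosomal protein, Rplp1, Rps2, Rps29 and Rpl10. Rpl41 had 929, 1051 and 1266 TPM in HFD and 1057, 1147 and 2030 TPM in LFD, where LFD mouse 3 stood above the rest. Its log2 fold change was -0.17 ± 0.34. Rps29, a small zinc-binding protein, had 587, 861 and 970 TPM in HFD and 645, 970 and 1228 TPM in LFD. Among tested members Rps29 had the lowest SD of log2 CPM over the 6 mice, 0.082, with a log2 fold change of 0.01 ± 0.23. Rpl10, which sits near the peptidyl transferase centre, had a log2 fold change of -0.02 ± 0.27, and Rps2, at the mRNA entry, of -0.23 ± 0.34.

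Rpl3l was the exception. It encodes the heart and muscle form of a large subunit protein near the peptidyl transferase centre, and its coding sequence differs at many bases from that of Rpl3, the general form. Rpl3 (chr15:80077791-80091868, minus strand) and Rpl3l (chr17:24727820-24736143, plus strand, both GRCm38) were compared base by base from the start codon without gaps. The first 75 coding bases are shown because a read of this length separates the genes, with differing bases in capitals.
Rpl3: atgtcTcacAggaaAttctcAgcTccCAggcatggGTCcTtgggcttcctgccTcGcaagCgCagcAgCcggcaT
Rpl3l: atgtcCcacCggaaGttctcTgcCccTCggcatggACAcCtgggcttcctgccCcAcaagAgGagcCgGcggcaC
The pair differed at 18 of these 75 bases and were identical at 888 of 1209 bases (73.4%), with no identical run longer than 22 bases. No stretch of 75 bases of an Rpl3l transcript occurred in a transcript of another gene.

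Rpl3l had 0.37, 1.18 and 0.18 TPM in HFD mice 1 to 3 and 12.6, 36.9 and 4.56 TPM in LFD mice 1 to 3. These values rest on 7, 16 and 3 counts in HFD and 256, 554 and 69 counts in LFD, so all HFD mice lay far below all LFD mice and the gene passed the filter only through the LFD mice. The log2 fold change was -5.15 ± 0.97, with an unadjusted p of 0.00122 and an adjusted p of 0.173 in edgeR. DESeq2 gave an adjusted p of 4.59e-07. The edgeR fit with same-numbered mice as a block used a pairing inferred from these same data. In it Rpl3l had an unadjusted p of 1.46e-05 and an adjusted p of 0.0107. In that fit 1.04% of all genes had an adjusted p under 0.05, and 2 members were lower at an unadjusted p under 0.05, Rpl3l and Rps12l1, where 8.76% of all genes were lower. Dropping LFD replicate 3 gave Rpl3l an adjusted p of 0.0310 in edgeR. Dropping any other single mouse gave values from 0.174 (LFD replicate 1) to 0.483 (HFD replicate 2), none below the 0.173 of all mice. Rpl3 in the same mice had 275, 402 and 521 TPM in HFD and 328, 446 and 696 TPM in LFD, a log2 fold change of -0.05 ± 0.28.

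Rpl3l moved with the markers of skeletal muscle. Of the 20 muscle markers, all were tested, 20 had negative fold changes and 0 were listed at 0 in any mouse. At an unadjusted p under 0.05, 19 were lower in HFD, where 6.62% of all genes were lower. Their median log2 fold change was -6.17. Some, such as Tcap at 0.68, 3.79 and 0.07 TPM in HFD, could be tested mainly through the LFD mice. Acta1, skeletal actin, had 8.30, 37.9 and 0.68 TPM in HFD and 872, 2336 and 486 TPM in LFD. Per 1000 TPM of muscle markers, Rpl3l had 2.02, 2.46 and 2.10 TPM in LFD mice 1 to 3, a narrow range, and 3.65, 3.21 and 11.1 TPM in HFD mice 1 to 3, where the counts were few. Eef1a2, the elongation factor that replaces Eef1a1 in muscle and neurons, followed the same order of mice in LFD, with 24.3, 70.3 and 13.9 TPM, and had 0.64, 0.90 and 0.11 TPM in HFD. Eef1a1 had 2688 to 6082 TPM over the 6 mice. The part of muscle RNA in the Rpl3l difference was not tested.

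**Figure D3:**
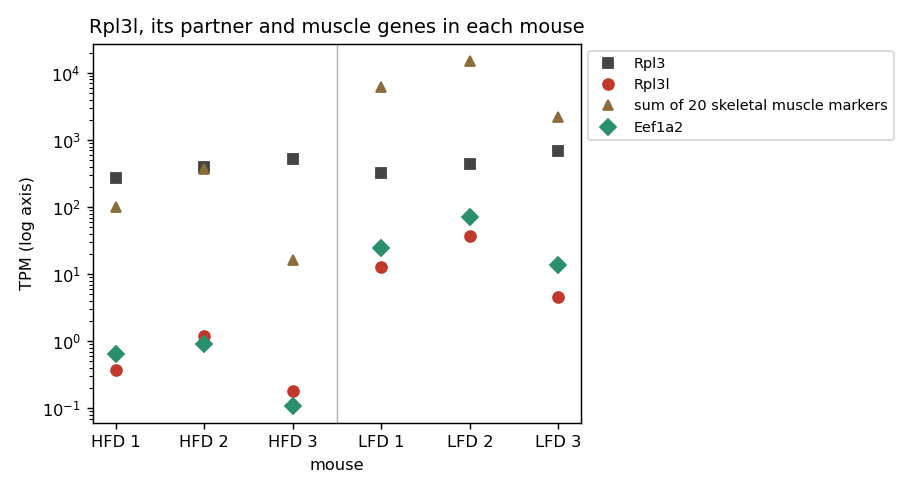
Points show TPM on a log axis in each of the 3 HFD and 3 LFD mice for Rpl3, Rpl3l, Eef1a2 and the sum of 20 skeletal muscle markers. Rpl3 stays between 275 and 696 TPM, while Rpl3l, Eef1a2 and the muscle markers are lower in every HFD mouse than in every LFD mouse.

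The paralogs were compared with their partners inside each mouse, as the percent of the TPM of the pair that came from the paralog. This share does not depend on the scaling of the library. For 7 pairs the diets were compared by an exact two-sided permutation test, whose smallest p with 3 mice against 3 is 0.1. Rpl3l made up 0.134%, 0.292% and 0.035% of its pair in HFD and 3.70%, 7.64% and 0.651% in LFD, a difference of -3.85 percentage points (exact p = 0.1, adjusted p = 0.7 over the 7 pairs). It was -2.02 points without LFD replicate 2 and -5.52 points without LFD replicate 3. The diets did not overlap for this pair, and they overlapped for the other 6.

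Rpl22l1, a paralog of the RNA-binding protein Rpl22, had 75.7, 105 and 121 TPM in HFD and 108, 150 and 187 TPM in LFD. Its share of the pair was 29.2%, 30.2% and 28.6% in HFD and 35.2%, 34.5% and 28.6% in LFD, with LFD mouse 3 close to the HFD mice. It was lower in HFD in all 3 same-numbered pairs of mice, a pairing inferred from these same data. The difference of -3.43 points had an exact permutation p of 0.3. It was -2.23 points without LFD replicate 1, -5.50 points without LFD replicate 3 and -2.25 points on rounded counts. The log2 fold change of Rpl22l1 was -0.31 ± 0.19 with an unadjusted p of 0.154 in edgeR, and that of Rpl22 was -0.15 ± 0.21.

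Rpl39l, known from the testis and a paralog of the exit tunnel protein Rpl39, was at a low level and uneven. It had 8.55, 5.93 and 4.45 TPM in HFD and 11.6, 8.67 and 42.7 TPM in LFD, with LFD mouse 3 far above the rest. The log2 fold change was -1.26 ± 0.65 with an unadjusted p of 0.096 in edgeR, and it was -0.65 without LFD replicate 3. Rpl39 had a log2 fold change of -0.05 ± 0.24.

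The remaining paralogs had shares that overlapped between the diets. Rpl36al took 53.1% to 65.0% of its pair with Rpl36a over the 6 mice when only the rows of the 2 genes were used. Much of the Rpl36a family lay on near-identical copies, other rows that hold nearly the same coding sequence, and with these added Rpl36al took 30.8% to 39.3%, less than its partner in every mouse. Rps27l, a p53 target paired with Rps27, took 15.3% to 24.1%. Rpl7l1, a nucleolar relative of Rpl7, took 3.21% to 5.53%, and Rps4l took 3.21% to 6.54% of its pair with Rps4x. Differences between the diets in these 4 pairs lay between 0.50 and 1.76 points, with exact permutation p-values of 0.4 to 0.9. They were unstable when a mouse was left out, from 0.037 points without LFD replicate 2 to 4.42 points without LFD replicate 1 for Rps27l, and from 0.205 to 1.36 points without the same mice for Rpl7l1. For Rpl36al the difference was -0.773 points without LFD replicate 3 and 5.18 points without LFD replicate 1, and for Rps4l -0.581 points without LFD replicate 2 and 1.09 points without LFD replicate 1. The log2 fold change of Rps27l was 0.31 ± 0.27, and it was at most 0.12 in size for Rpl36al, Rpl7l1 and Rps4l. Rpl10l, the testis paralog of Rpl10, was listed at 0 in all 6 mice.

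**Figure D4:**
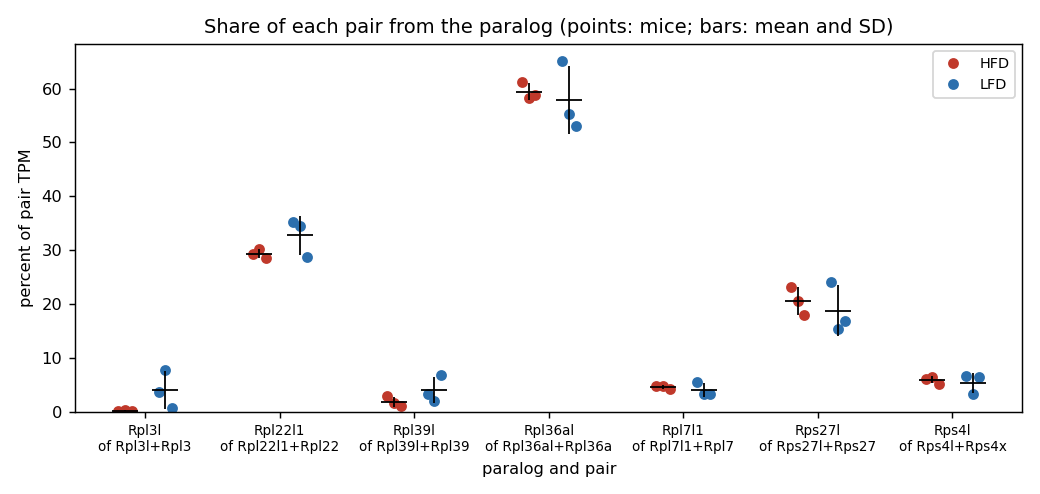
Points show the percent of each pair's TPM that came from the paralog in each HFD (red) and LFD (blue) mouse, and the bars give the mean and SD of 3 mice. The shares use the rows of the 2 genes without copies, and Rpl3l is the only one of the 7 pairs in which the diets do not overlap.

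The lowest canonical genes had near-identical rows elsewhere with many more counts. Rps12, a general small subunit protein, was listed at 0 in all 6 mice. Its coding sequence occurs base for base in the rows Rps12l1 and Rps12-ps3, whose 396 aligned bases did not differ from it. The first 75 coding bases of Rps12 (chr10:23785183-23787275, minus strand, GRCm38) are shown because a read with these letters can come from any of 6 annotated genes.
Rps12: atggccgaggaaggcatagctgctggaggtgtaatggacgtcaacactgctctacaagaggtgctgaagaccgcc
Rps12-ps3 (chr19:59322290-59322783) had 389, 598 and 709 TPM in HFD and 362, 705 and 1085 TPM in LFD. Rps12l1 (chr7:56014016-56014414), itself a member by its symbol, had 247, 184 and 264 TPM in HFD and 357, 289 and 439 TPM in LFD. For Rps12, RSEM's own upper bounds were 2.42 to 6.68 TPM. With all its near-identical copies, the Rps12 family had 636, 784 and 974 TPM in HFD and 721, 995 and 1524 TPM in LFD, which is the range of the other genes. A 75-base read inside the identical part cannot tell these loci apart.

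Other genes differed from their copies at a few bases. Rps7 (chr12:28630854-28635953, minus strand) and its copy Gm6472 (chrX:152909505-152910155) differed at 3 of 582 coding bases. The first 60 coding bases hold 2 of these differences, in capitals, and are shown because a read that covers neither fits both rows.
Rps7: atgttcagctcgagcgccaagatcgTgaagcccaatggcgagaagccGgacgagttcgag
Gm6472: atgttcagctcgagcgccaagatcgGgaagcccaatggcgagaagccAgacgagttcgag
The substitutions from Rps7 to Gm6472, counted from 1 at the start codon, were T26G, G48A and G123T. Over the 6 mice Rps7 had 3583 counts, and the rows of its copies had 24391 counts.

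Shared sequence was widespread. A stretch of 75 bases shared with another gene's transcript was found in 83 of the 86 members, and the median member shared 18.4% of its stretches. Rows whose transcript held at least 95% of the coding sequence of a member were taken as near-identical copies, a threshold chosen after the data had been seen. There were 271 such rows for 69 members, of which 174 had counts. Some were protein-coding genes with names of their own, and all their counts were added to the family. Examples are Wdr89 for Rplp2 (2479 counts over the 6 mice), BC004004 for Rpl21 (7963) and Flt3l for Rpl13a (458). More than 50% of the counts of the family lay on copies for 11 members.

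Rps23, a protein of the decoding centre, had 533 counts over the 6 mice beside 20738 on its copies. Its own row had 5.62, 9.92 and 12.0 TPM in HFD and 4.81, 4.92 and 11.5 TPM in LFD, a log2 fold change of 0.61 ± 0.36. With the copies, its level was 414, 553 and 737 TPM in HFD and 427, 695 and 990 TPM in LFD, and its log2 fold change was -0.03 ± 0.24. Of the counts of the family, 97.5% lay on copies, and the higher values of Rps23 in HFD on log2 CPM rest on the remainder. Rpl27 had 1082 counts beside 14791 on copies, Rpl12, which holds the base of the stalk, 2479 beside 25022, and Rpl5, which carries the 5S ribosomal RNA, 11244 beside 32617.

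With copies added, the genes came to lie close together in level. Of the 76 canonical genes, that is the members without the paralogs and the rows Rps12l1 and Rpl6l, the mean TPM over 6 mice ran from 0 to 1247 with a median of 446, and 5 genes lay under 100 TPM. These were Rps12, Rps23, Rpl27, Rpl12 and Rps7. With copies the range was 278 TPM (Rpl29) to 1280 TPM (Rps29), the median 535 TPM, and 0 genes lay under 100 TPM. The diet comparison changed little. Of 83 families tested, 1 had an unadjusted p under 0.05 (Rpl3l), the median log2 fold change was -0.07, and 2 had an absolute log2 fold change of 0.5 or more, Rpl3l and Rpl39l.

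**Figure D5:**
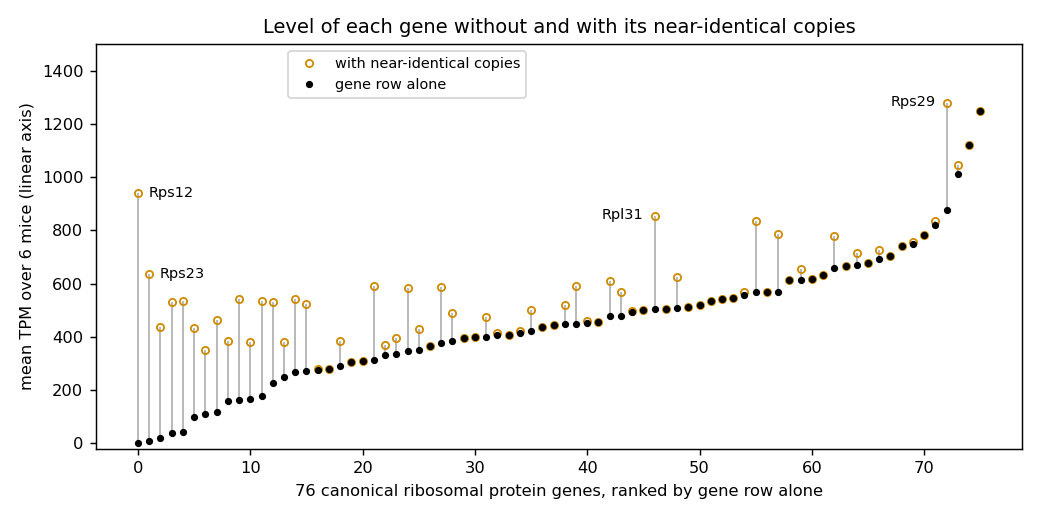
Filled points show the mean TPM over 6 mice of the 76 canonical ribosomal protein genes in rank order, open points the same with near-identical copies added, and lines join the pair of values of a gene. The 5 genes under 100 TPM on the left rise to between 436 and 939 TPM with their copies.

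Rpl6l, a copy-like gene that shares 69.4% of its stretches with other genes, had the largest positive fold change. Its counts were 22, 27 and 0 in HFD and 21, 0 and 0 in LFD, and the log2 fold change of 0.98 ± 1.74 lay within its error. Of the other members with the largest changes, Rps12l1 had a log2 fold change of -0.40 ± 0.39, Rpl35a of 0.27 ± 0.22 and Rpl17 of 0.25 ± 0.22. The Rps12 family, which holds the row of Rps12l1, had a log2 fold change of -0.14 ± 0.27. With copies it was 0.15 ± 0.22 for Rpl35a and 0.01 ± 0.25 for Rpl17. Rpl23a, named after its values were seen, had log2 CPM values of 7.86, 7.81 and 7.97 in HFD and 7.74, 7.58 and 7.74 in LFD. Its log2 fold change of 0.19 became -0.10 with its copies.

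The machinery around the ribosome was set beside these genes. The ribosomal proteins outside the naming rule had 0 of 4 tested genes at an unadjusted p under 0.05 and fold changes of -0.14 to 0.06 on the log2 scale. Of 29 translation initiation factors, 30 ribosome assembly genes, 12 RNA polymerase I genes and 14 other TOP genes, 0 passed in either direction, with median log2 fold changes of -0.08, -0.03, 0.02 and -0.07. Of 8 elongation factors, 1 was lower, Eef1a2, where 6.62% of all genes were lower. Of 19 regulators of TOP mRNAs, 2 were higher at an unadjusted p under 0.05, where 3.86% of all genes were higher. These were Rps6ka1, a kinase that phosphorylates Rps6, with a log2 fold change of 0.90 ± 0.32 and an adjusted p of 0.406 in edgeR, and Gabpa, the ETS factor named above, with 0.51 ± 0.20 and an adjusted p of 0.446. Of 77 mitochondrial ribosomal protein genes, 0 passed in either direction, 54 had positive fold changes and the median was 0.10. Of the 84 cytosolic members 29 had positive fold changes, and the difference between these lists was not tested.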

How the data were processed

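RNA sequencing of brown adipose tissue from 3 HFD and 3 LFD mice was analysed, with diets and replicate numbers taken from the labels. The authors trimmed reads with Trimmomatic 0.36 and quantified them with RSEM 1.3.0 on GRCm38.p4 with Ensembl 84. The authors deposited expected counts, in which RSEM splits reads with several matching genes by estimated probability, and TPM values, which are corrected for effective length and scaled to the same total in each mouse. The strand setting is not given in the sources used here. A count carries counting error beside the spread between mice.

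Expected counts were rounded and tested in R 4.3.3 with edgeR 4.0.16 (TMM, filterByExpr, quasi-likelihood test, Benjamini-Hochberg over 17668 genes). DESeq2 1.42.0 was an alternative, with others on normalization, filters, mitochondrial genes, pseudogene rows and left-out mice. Log2 CPM used a prior count of 2 and log2 TPM a pseudocount of 1. Fold changes are given ± standard error. Same-numbered mice of the 2 diets deviated together (r = 0.498, 0.229 and 0.522), so the numbers of the labels were taken as pairing them. The labels give only replicate numbers, and the pairing was inferred from these same values. The fit with this block is given for Rpl3l, and where it changed a sign or which members had an unadjusted p under 0.05. It is not independent support. Libraries of the same diet differed beyond sampling noise, so none was a repeated deposit. The test was also run on simulated counts with 200 changed genes, drawn with means and dispersions from the main fit. The outcome of that run is not given here.

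Shared stretches, coding sequences and gene positions came from GENCODE M21, and start windows from RefSeq. The named genes were all paralog pairs, the stalk proteins, Rpsa, Rps27a, the 5 highest and 5 lowest members by TPM, the 10 largest fold changes, and members at an unadjusted p under 0.05. From other lists, the counts and few genes are given. The members and lists were chosen with earlier results of these data known. Some genes are not reported by name here.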

Additional observations from a re-analysis of the deposited data

How the results depend on the processing

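Rpl3l was lower in HFD in each alternative that tested it. A minimum of 10 counts in every mouse left it out, so that 0 members were lower at an unadjusted p under 0.05. DESeq2 called 1 member. With the replicate block 2 members were lower, Rpl3l and Rps12l1, where 8.76% of all genes were lower. Leaving out each mouse in turn, 1 to 2 members were lower and 0 to 2 higher. Without HFD replicate 1 or LFD replicate 2, 2 of 84 were lower, Rpl3l and Rpl39l, where 5.88% and 4.47% of all genes were lower in these fits. Without LFD replicate 1, 2 were higher, Rpl7l1 and Rps27l, where 6.01% of all genes were higher. Over the 6 fits 3.89% to 9.55% of all genes were lower and 2.17% to 7.7% higher. The median log2 fold change was -0.28 on log2(TPM + 1), beside -0.18 over all genes. The cause was not tested.

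Fold changes near zero changed sign. Without TMM factors the log2 fold change was 0.029 for Rpl10, 0.073 for Rpl36al and 0.013 for Rps4l. With at least 10 counts it was 0.0056 for Rpl36al. With the replicate block it was 0.018 for Rpl36al and 0.068 for Rps4l. Apart from Rpl3l and Rps12l1, no member had an unadjusted p under 0.05 in that edgeR fit. Without mitochondrial genes it was -0.0036 for Rplp2 and -0.0022 for Rps29. With copies added it was -0.065 for Rplp2, whose only copy row was Wdr89. For Rps23 it was -0.027 with copies added and -0.027 with named pseudogenes added. Leaving out a mouse gave ranges across zero for Rpl10 (-0.10 to 0.040), Rpl3 (-0.17 to 0.062), Rpl36a (-0.18 to 0.015), Rpl36al (-0.16 to 0.23), Rpl39 (-0.16 to 0.047), Rpl7l1 (-0.073 to 0.47), Rplp2 (-0.088 to 0.17), Rps27a (-0.0019 to 0.23), Rps29 (-0.046 to 0.054) and Rps4l (-0.33 to 0.21). The paralog share difference ranged from -0.773 to 5.18 points for Rpl36al and from -0.581 to 1.09 points for Rps4l. For Rpl39l it ranged from -3.21 points without LFD replicate 2 to -0.823 points without LFD replicate 3. On rounded counts it was 2.05 points for Rpl7l1 and 3.05 for Rps27l, and with copies added, chosen after seeing the data, 2.87 for Rpl36al. With 3 mice a diet, small differences in these genes could not be resolved, and p-values measure the spread between these mice.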

Other observations

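Near-identical copies took 15.5% ± 0.69 (SD, n = 3) of the family counts in HFD and 16.3% ± 0.62 in LFD. The share was lower in HFD in all 3 same-numbered pairs, a pairing inferred from these same data. The copy rows Rps12l1 and Rpl6l count as members in these shares, not as copies. All counts of the other copy rows are held, those of the protein-coding genes Wdr89, BC004004 and Flt3l among them. Single copy rows were uneven between mice of the same diet. Rpl10-ps3, identical to Rpl10 over its 642 coding bases, had 607 counts in LFD mouse 3 and 0 in the other 5 mice. Gm10335, a copy of Rpl23a, had 60, 0 and 202 counts in HFD mice and 825, 0 and 313 counts in LFD mice. Gm4294, a copy of Rpl15, had 330 counts in HFD mouse 1, 159 in LFD mouse 3 and 0 in the other 4 mice.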
